A study of Mus musculus with 47 samples.

Results

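The genes that flank Bcmo1 on mouse chromosome 8 were followed in the inguinal fat pad (iWAT, a subcutaneous white fat) of Bcmo1-null mice and their wild-type (WT) controls. They were chosen by position, with some names left out. The rule took every gene name on the array whose probe started between 111 and 123 Mb of chromosome 8 in the mm8 assembly. It left out Bcmo1 itself, the cholesterol-synthesis gene Mvd and families such as the ribosomal, NADH dehydrogenase and cytochrome oxidase genes. The rule found 120 genes, on 203 spots and 194 different probes, of 27484 gene names on 43379 spots and 41174 probes in all. Of these names 17 were transcript accessions or array names, and 85 genes matched a RefSeq entry, all 85 of them on chromosome 8.

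RNA was taken from 47 mice of a mixed C57/BL6;129Svj background, WT or homozygous for the null allele Bcmo1tm1Dnp, female or male. From 5 weeks of age they ate a diet with 1500 IU vitamin A/kg, either without (control diet) or with 150 mg β-carotene/kg (BC diet), for 14 weeks, and were killed at 19 weeks of age. The WT controls were, per the study's methods, of an F1 generation of the mixed background, and the labels name no littermate relation between the genotypes. Each of the 8 groups held 6 mice, except WT males on BC diet with 5, and each mouse was 1 array. Cy5-labelled RNA of the mouse was read against a Cy3-labelled pool of all samples, so that a level below is log2 of mouse over pool, and a difference is the Bcmo1-null mean minus the WT mean on that log2 scale.

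Bcmo1 encodes the enzyme that cleaves β-carotene symmetrically to retinal, the first step from dietary provitamin A to vitamin A. Targeted alleles are commonly made in embryonic stem cells of one mouse strain and crossed to another, and the DNA on both sides of the target travels with it until recombination separates them. Neighbouring genes can then carry variants of the stem cell strain in the mutants that the controls lack or carry in fewer copies. A variant that changes expression in its own tissue would show as a genotype difference in females and males and on either diet. The comparison therefore asked which neighbours of Bcmo1 differed in the same direction in all 4 combinations of sex and diet, called strata here, which share no mouse. The strain of origin of the segment in these mice, mutants or F1 controls, was not given in the sources used here. Whether strain differences elsewhere in the genome enter the shares of all genes was not tested.

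The promoters of Bcmo1, of the nearest tested gene below it (Gcsh), and of the 2 members within 1 Mb with the largest differences (Plcg2 and Dynlrb2) are shown to introduce the locus, as RefSeq gives them for GRCm38.p6, 300 bases each, 5′ to 3′ on the gene's strand. They lie at chr8:117095615-117095914 (plus strand, Bcmo1, now Bco1), chr8:116993449-116993748 (minus strand, Gcsh), chr8:117498025-117498324 (plus strand, Plcg2) and chr8:116504765-116505064 (plus strand, Dynlrb2). Capitals mark matches, on either strand, to 4 kinds of short motif. The first is the hexamer of nuclear receptors, AGGTCA, also searched as a direct repeat with 1 base between its copies (called DR1), which it overlaps. The next is the E-box, CACGTG, bound by basic helix-loop-helix factors. The CCAAT box and the GC box, GGGCGG, are common elements of promoters without tissue restriction.
Bcmo1: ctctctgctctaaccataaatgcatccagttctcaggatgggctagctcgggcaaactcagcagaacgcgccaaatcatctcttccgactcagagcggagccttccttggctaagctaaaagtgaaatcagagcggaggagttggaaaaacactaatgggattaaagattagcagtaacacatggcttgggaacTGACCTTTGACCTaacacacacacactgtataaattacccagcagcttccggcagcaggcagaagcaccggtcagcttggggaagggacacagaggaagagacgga
Gcsh: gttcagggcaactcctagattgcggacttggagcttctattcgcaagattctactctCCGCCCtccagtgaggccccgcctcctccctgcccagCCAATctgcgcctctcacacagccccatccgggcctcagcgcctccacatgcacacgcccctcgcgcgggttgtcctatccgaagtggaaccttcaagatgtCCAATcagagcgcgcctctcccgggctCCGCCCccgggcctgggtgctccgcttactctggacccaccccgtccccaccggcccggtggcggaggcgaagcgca
Plcg2: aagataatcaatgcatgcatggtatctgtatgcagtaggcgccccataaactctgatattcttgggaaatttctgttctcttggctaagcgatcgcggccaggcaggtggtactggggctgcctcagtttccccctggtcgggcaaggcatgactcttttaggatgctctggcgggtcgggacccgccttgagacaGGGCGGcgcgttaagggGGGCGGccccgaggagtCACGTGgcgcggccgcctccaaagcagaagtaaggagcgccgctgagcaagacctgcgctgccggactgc
Dynlrb2: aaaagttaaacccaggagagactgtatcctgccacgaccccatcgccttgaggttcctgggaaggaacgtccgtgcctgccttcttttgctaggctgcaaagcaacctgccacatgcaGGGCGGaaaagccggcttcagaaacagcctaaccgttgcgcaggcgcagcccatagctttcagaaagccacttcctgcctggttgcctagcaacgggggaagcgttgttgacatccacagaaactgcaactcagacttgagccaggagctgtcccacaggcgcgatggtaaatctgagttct

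The direct repeat, the arrangement bound by PPAR with retinoid X receptor, stood in the Bcmo1 promoter and in 13 of 32851 promoters in all (0.0396%). It was in none of the 45 promoters of tested members found in that table. The hexamer was in 5 of these 45 (11.1%, against 16.3% of all promoters), the E-box in 8 (17.8%, against 7.15%), the CCAAT box in 19 (42.2%, against 37.4%) and the GC box in 28 (62.2%, against 35.7%). These matches are a description of the letters only.

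Of the 120 members 72 had a mean signal of at least 2 times the local background in both channels and were tested over the 47 arrays, 73 were tested in females, 71 in males and 70 in both sexes. The 48 members that were not tested included Hsd17b2, which encodes a steroid dehydrogenase. The Bcmo1 probe, at chr8:120019073-120019132 of mm8, was itself too dim: its Cy5 signal was 1.47 to 1.72 times background in the 8 groups, its group means lay between -0.07 and 0.14, and the scanner software called it well above background on 1 to 4 mice of a group, WT and null alike. It cannot check the genotype labels. Whether it lies within the deleted part was not given in the sources used here.

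No flanking gene met the pattern asked for. With 1 sign and an unadjusted p under 0.05 in all 4 strata (limma), there were 0 of 70 members, against 279 of 14165 genes tested in both sexes (1.97%). With so low a background share, a count of 0 among 70 genes does not set the members apart from other genes. In at least 3 of the 4 strata 2 members passed, BC024137 and Mbtps1 (2.86%, against 5.65% of all genes). The sign alone was shared by all 4 strata in 15 of 70 members (21.4%, against 23.7%), of which 6 were higher (11% of all genes) and 9 lower (12.7%) in Bcmo1-null mice.

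The stretch without such a gene reached beyond the window. On chromosome 8 as a whole 22 of 721 tested genes had 1 sign and an unadjusted p under 0.05 in all 4 strata (3.05%, against 1.97% of all genes). The nearest on the lower side was Sntb2, a syntrophin of the dystrophin complex, 10.1 Mb from the Bcmo1 probe, and the nearest on the upper side was Dpep1, a membrane dipeptidase, 6.07 Mb away. Between them lay 16.2 Mb with 118 tested genes. Of 179 windows of 12 Mb with at least 30 tested genes, 72 held no such gene. These windows were shorter than the stretch, and most held fewer tested genes. They do not show how common a stretch of this length is.

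**Figure D1:**
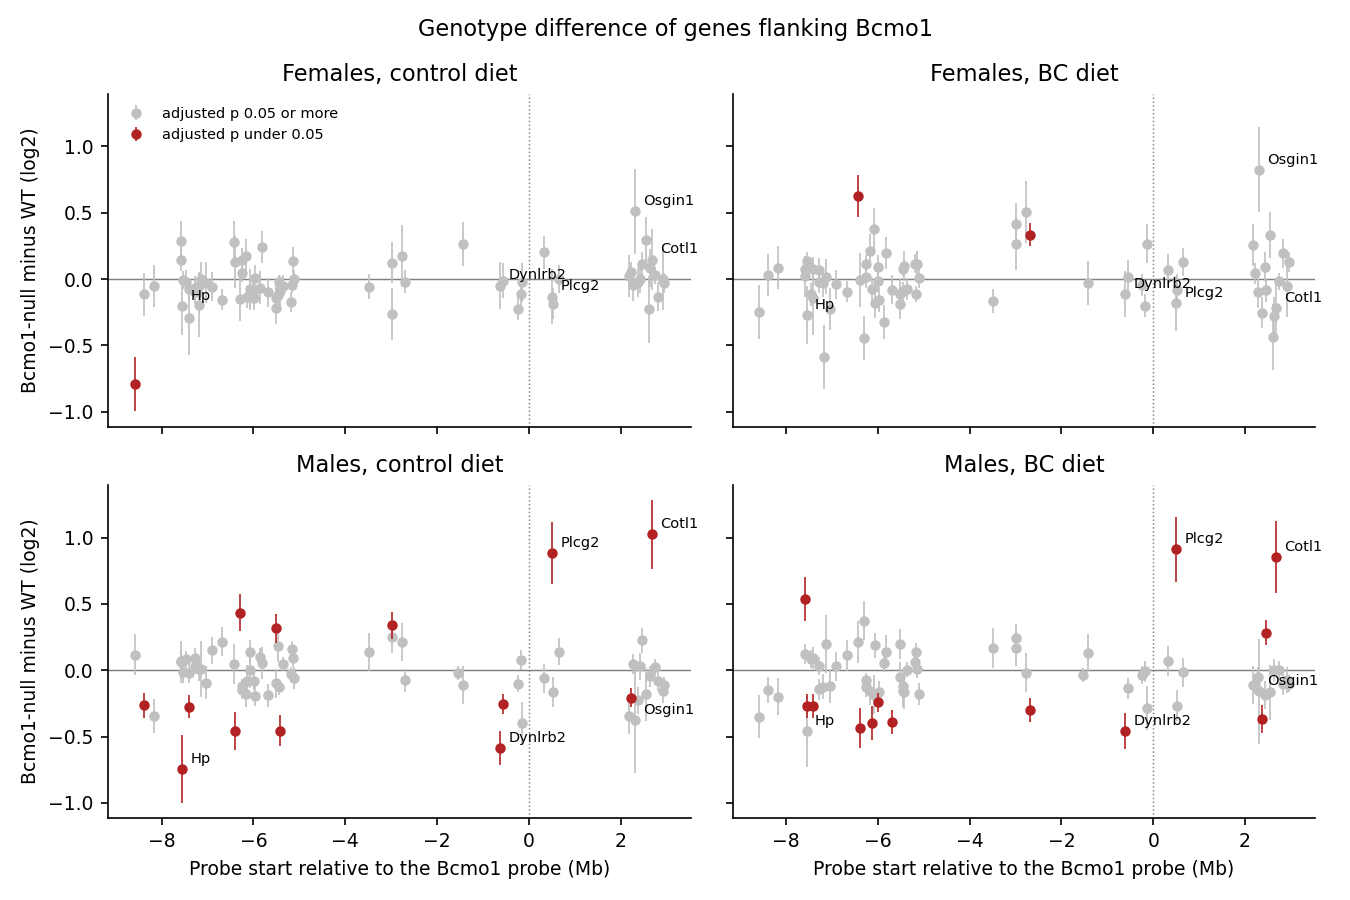
Difference between Bcmo1-null and WT mice (log2, with the standard error) of each tested flanking gene against the distance of its probe from the Bcmo1 probe in Mb, in the 4 strata. Red points passed an adjusted p of 0.05: 1 of 73 and 2 of 73 in females on control and BC diet, and 13 of 71 in males on each diet.

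Averaged over the 4 strata, 19 of 72 members differed between the genotypes at an adjusted p under 0.05 (26.4%), while 30.5% of all 14432 genes did. Of these members 8 were higher in Bcmo1-null mice (16.9% of all genes) and 11 were lower (13.6%). The differences of the members ran from -0.42 for Hp to 0.45 for Cotl1. Their median size was 0.07 against 0.10 for all genes, and 0 of 72 members exceeded 0.5 while 5.54% of all genes did. The 95% confidence interval of the mean difference lay within 0.5 on either side of 0 for 67 of 72 members, and within 0.25 for 45.

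By distance, 4 of 9 tested members within 1 Mb of Bcmo1 were called (44.4%), 4 of 20 at 1 to 3 Mb (20%), 4 of 16 at 3 to 6 Mb (25%) and 7 of 27 beyond 6 Mb (25.9%). In the rest of chromosome 8 it was 230 of 668 (34.4%). The 4 called within 1 Mb were Plcg2, which was higher, and Dynlrb2, 4632417N05Rik and 2310061C15Rik, which were lower. The median size of the difference was 0.10 within 1 Mb and 0.06 beyond 6 Mb, against 0.11 in the rest of the chromosome.

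**Figure D2:**
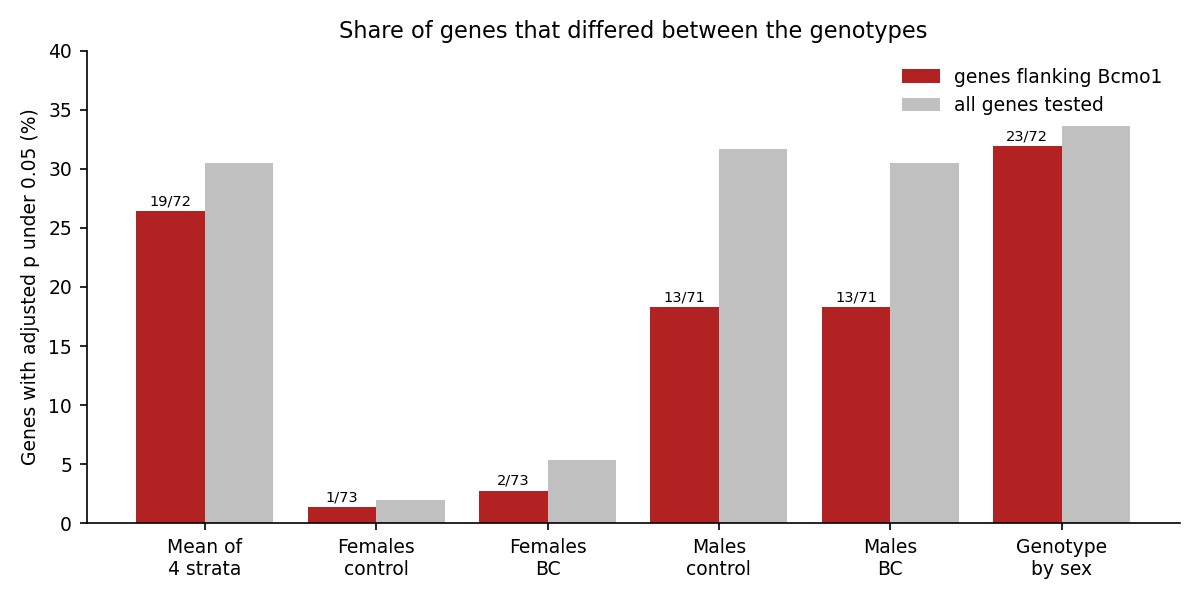
Percent of flanking genes (red, with the counts) and of all tested genes (grey) with an adjusted p under 0.05, for the mean genotype difference, the 4 strata and the genotype by sex term. The red bar is the lower one of each pair, from 1.37% against 1.93% in females on control diet to 31.9% against 33.6% for genotype by sex.

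Females and males differed in how many members were called. In females 1 of 73 members was called on control diet (1.37%, against 1.93% of all genes) and 2 of 73 on BC diet (2.74%, against 5.35%). In males it was 13 of 71 on control diet (18.3%, against 31.7%) and 13 of 71 on BC diet (18.3%, against 30.5%). Called on both diets with 1 sign were 5 of 71 members in males (7.04%, against 22.6%) and 0 of 73 in females (1.08%). The 5 were Plcg2 and Cotl1, which were higher, and Dynlrb2, D8Ertd587e (Atxn1l in RefSeq) and 2010004A03Rik (Il34, a ligand of the macrophage receptor CSF1R), which were lower.

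The genes next to Bcmo1 were examined first. On the lower side, Gcsh encodes the H protein of the glycine cleavage system and lies 0.144 Mb away. In WT and null females its lowest, median and highest levels were -0.72, -0.26 and 0.34 against -0.48, -0.33 and 0.34 on control diet, and -0.76, -0.43 and -0.37 against -0.41, -0.18 and -0.10 on BC diet. In males they were -0.28, 0.50 and 0.77 against -0.36, 0.03 and 0.23 on control diet, and -0.17, 0.46 and 0.71 against -0.17, 0.05 and 0.39 on BC diet. The genotypes overlapped in every stratum. No stratum passed the adjusted threshold for Gcsh, but the difference between the sexes did (females minus males 0.46 ± 0.16, SE; limma adjusted p = 0.0229).

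Of the other neighbours on that side 1 passed. BC060631 (Atmin, a zinc finger protein of the DNA damage response) had a mean difference of -0.06 ± 0.04 (SE; adjusted p = 0.259) and Cdyl2, a chromodomain protein, one of -0.10 ± 0.05 (adjusted p = 0.178). 2310061C15Rik (Cmc2, of mitochondrial complex assembly) was lower by mean, at -0.10 ± 0.04 (adjusted p = 0.0374), with differences of -0.22, -0.04, -0.10 and -0.03 in control and BC females and control and BC males. The 95% interval of its mean difference ran from -0.175 to -0.025.

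On the upper side, 4933407C03Rik at 0.325 Mb had a mean difference of 0.07 ± 0.06 (adjusted p = 0.401), and Mphosph6, an RNA exosome cofactor at 0.659 Mb, one of 0.06 ± 0.05 (adjusted p = 0.382). 4632417N05Rik (Sdr42e1, of the short-chain dehydrogenase family) at 0.528 Mb fell by 0.17 ± 0.06 (adjusted p = 0.0205). Its 4 strata gave -0.19, -0.08, -0.16 and -0.27, none past the adjusted threshold alone.

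**Figure D3:**
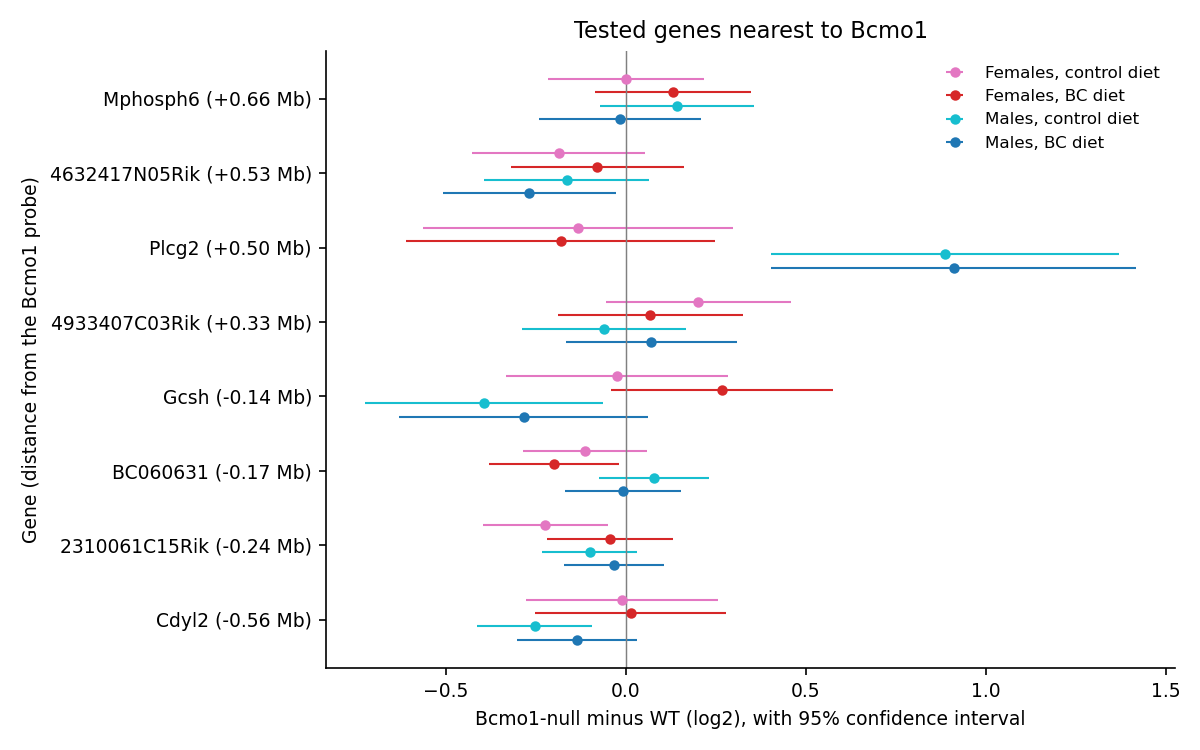
Difference between Bcmo1-null and WT mice (log2, point) with its 95% confidence interval (line) in the 4 strata for the 4 tested genes nearest to Bcmo1 on each side, ordered by distance in Mb. Plcg2 lies near 0.9 in both male strata and at -0.13 and -0.18 in females, and most other intervals cover 0.

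Plcg2, 0.502 Mb above Bcmo1, encodes phospholipase C gamma 2, which acts below the B cell receptor. In males on control diet the lowest, median and highest levels were -1.25, -0.70 and 0.02 in WT and -0.07, 0.15 and 0.71 in null mice. On BC diet the 5 WT males had -0.97, -1.01, -0.54, -0.97 and -1.09, and null males had -1.15, 0.13 and 0.55. Null males were mostly higher, but the groups overlapped, and 1 null male on BC diet was below all WT males of that diet. In females the levels were -0.58, -0.06 and 0.33 in WT against -1.03, -0.23 and 0.28 in null mice on control diet, and -0.41, 0.06 and 0.41 against -0.50, -0.06 and 0.11 on BC diet.

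The difference in Plcg2 was 0.89 ± 0.23 (SE; limma adjusted p = 0.00673) in males on control diet and 0.91 ± 0.25 (adjusted p = 0.00821) on BC diet. In females it was -0.13 ± 0.21 (adjusted p = 0.928) and -0.18 ± 0.21 (adjusted p = 0.633). Females minus males, the genotype difference was -1.06 ± 0.23 (adjusted p = 0.000819), the smallest p of the members, each on its brightest probe.

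Cotl1, 2.68 Mb above Bcmo1, encodes coactosin-like protein, which binds actin filaments and is abundant in leukocytes. In males its lowest, median and highest levels were -1.67, -0.85 and -0.18 in WT against 0.02, 0.11 and 0.66 in null mice on control diet, with no overlap. On BC diet the 5 WT males had -1.18, -0.84, -0.97, -0.92 and -1.35 against -1.52, 0.04 and 0.17 in null males, where 1 null mouse lay below all WT mice. In females they were -1.26, -0.19 and 0.25 against -1.21, -0.09 and 0.36 on control diet, and 0.10, 0.21 and 0.54 against -0.20, 0.03 and 0.33 on BC diet. The difference was 1.02 ± 0.26 (adjusted p = 0.00533) and 0.85 ± 0.27 (adjusted p = 0.0226) in males, and 0.15 ± 0.23 and -0.22 ± 0.23 in females. Its second probe also gave a higher mean in null mice, 0.49 against 0.45.

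In males, lymphocyte markers differed between the genotypes in the same direction as Plcg2 and Cotl1. Inguinal fat holds a lymph node, and a score over 10 of 12 listed lymphocyte genes (Ms4a1, Cd79b, Cd3d, Lck and others; Cd79a and Blk were below the filter) ran from -3.03 to 0.28 (median -1.74) in WT males on control diet and from 0.40 to 1.57 (median 0.71) in null males. On BC diet it ran from -3.25 to -1.44 in WT and from -2.46 to 0.99 in null males. The null male on BC diet with the lowest levels of both genes, replicate 1, was also the one with the score of -2.46. In females the ranges overlapped widely, from -2.72 to 0.12 and -2.17 to 0.64 in WT and null mice on control diet and from -2.57 to 0.61 and -2.69 to 0.75 on BC diet. There the WT mouse with -2.57, replicate 5, had the lowest Plcg2 of its group (-0.41) but the highest Cotl1 (0.54). Scores of other cell types moved with the genotype too. A score over 6 of 6 brown adipocyte genes ran from 0.05 to 0.92 in WT and from -1.17 to -0.06 in null females on control diet, and from 0.46 to 1.85 and from -1.15 to 0.53 on BC diet. In males it went the other way, from -1.62 to -0.91 in WT and from -0.88 to 0.24 in null mice on control diet, and from -1.56 to 0.05 and from -0.85 to 0.22 on BC diet. The ranges did not overlap on control diet in either sex. The part of brown adipocytes in the results was not tested. More lymphocytes and more RNA per cell cannot be told apart in these whole-tissue samples.

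With scores of lymphocytes, mammary epithelium and skeletal muscle as covariates, the male difference in Plcg2 was 0.03 ± 0.11 on control diet and -0.09 ± 0.12 on BC diet, and that in Cotl1 was 0.13 ± 0.17 and -0.20 ± 0.19 (SE). In females it was -0.02 ± 0.08 and 0.08 ± 0.08 for Plcg2 and 0.41 ± 0.16 and 0.11 ± 0.16 for Cotl1, none past the adjusted threshold. The mean difference of Cotl1 over all arrays stayed called in 13 of 13 other settings, the one with marker scores included. In males the lymphocyte score itself differed between the genotypes, without overlap on control diet. The covariate fit can therefore not separate the score from the genotype there. Members called with these covariates numbered 1 of 71 and 0 of 71 in males on control and BC diet, and 0 of 72 for genotype by sex, where all genes fell to 3.19%, 1.86% and 0.547%. Without the null male with the low score, the difference of Plcg2 on BC diet was 1.14 ± 0.20 (limma adjusted p = 0.000244). That mouse also had the lowest Plcg2 of its group, so leaving it out had to raise the difference.

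**Figure D4:**
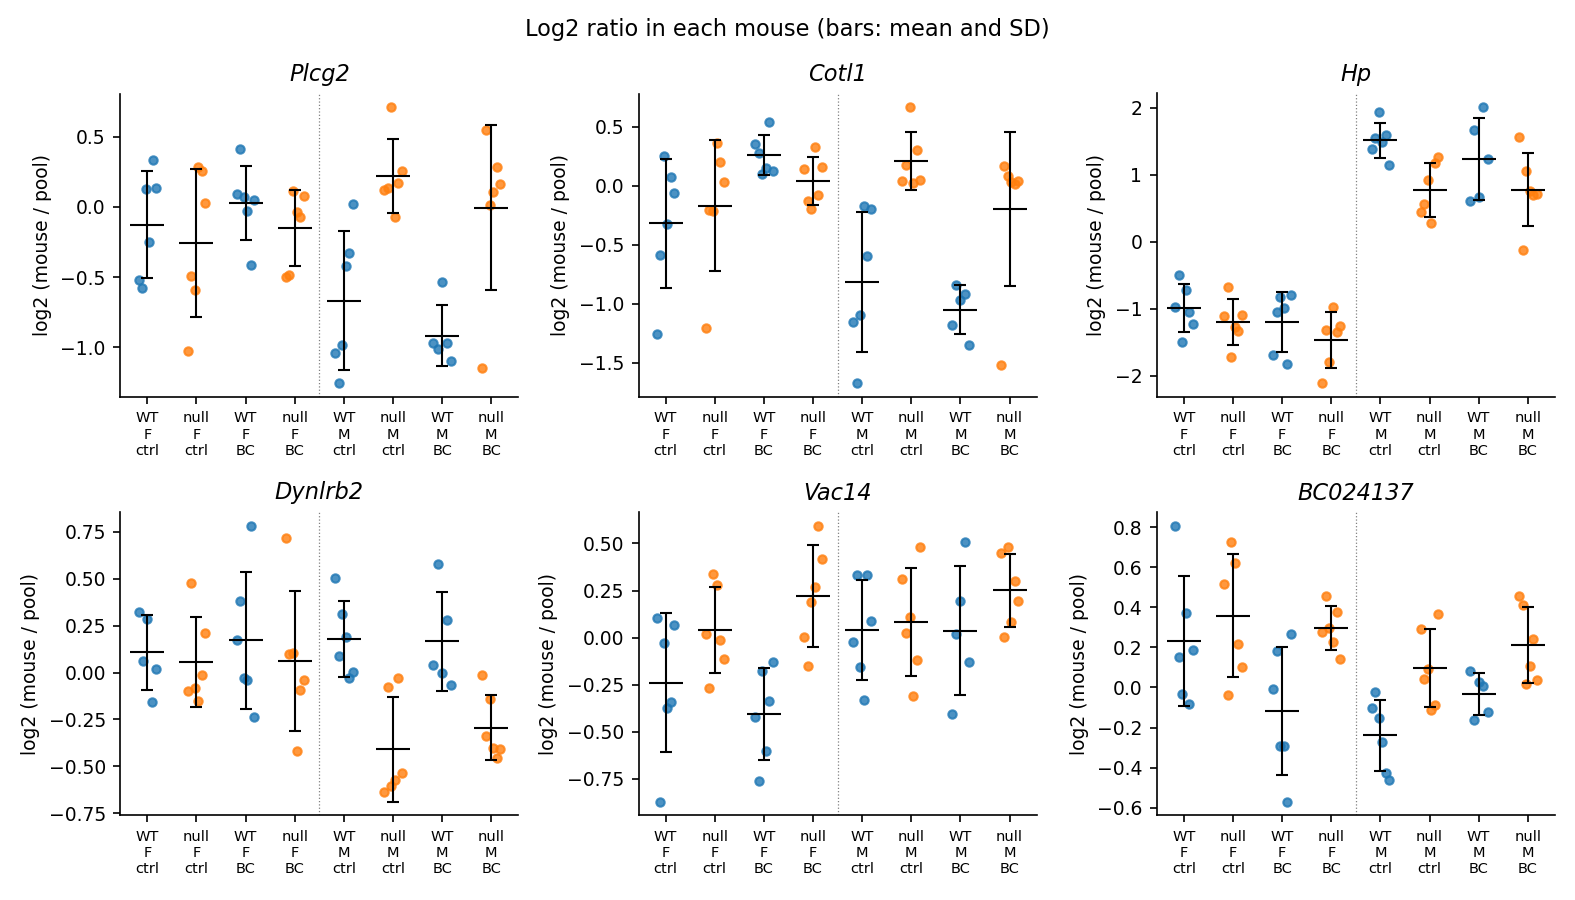
Level in each mouse (log2 of mouse over pool) of 6 flanking genes, in WT (blue) and Bcmo1-null (orange) females (F) and males (M) on control (ctrl) and BC diet, with the mean and SD in black. Plcg2 and Cotl1 are mostly lower in WT males than in null males, with 1 low null male on BC diet, and Hp is higher in males than in females of either genotype.

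Lower in null males, Dynlrb2, 0.617 Mb below Bcmo1, encodes a light chain of dynein. On control diet its lowest, median and highest levels were -0.03, 0.14 and 0.50 in WT males and -0.64, -0.55 and -0.03 in null males, which did not overlap. On BC diet the 5 WT males had 0.04, 0.58, 0.00, 0.28 and -0.07, and null males had -0.45, -0.37 and -0.01, which did overlap. In females the medians were 0.06 and -0.05 on control diet and 0.07 and 0.03 on BC diet, within ranges from -0.42 to 0.78. The difference was -0.59 ± 0.13 (SE; adjusted p = 0.0021) and -0.46 ± 0.14 (adjusted p = 0.0146) in males, and -0.05 ± 0.18 and -0.11 ± 0.17 in females, where the fit lacked 1 WT mouse on control diet whose spot was an outlier. The difference was not the same in the sexes (females minus males 0.44 ± 0.16, adjusted p = 0.0283). With the marker scores, the male differences of Dynlrb2 were -0.36 ± 0.14 and -0.21 ± 0.15 in the fit within males. In the separate fit over all arrays with the scores its mean was no longer called (-0.12, limma adjusted p = 0.246).

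Hp, 7.55 Mb below Bcmo1, encodes haptoglobin, which binds free haemoglobin and is made by liver and adipocytes. Its levels in males lay above those in females without overlap: WT males had a lowest, median and highest level of 1.15, 1.52 and 1.94 on control diet, and the 5 on BC diet had 0.62, 1.67, 0.67, 2.01 and 1.24, against -1.50, -1.01 and -0.49 and -1.82, -1.01 and -0.80 in WT females. Null males had 0.28, 0.74 and 1.26 and -0.12, 0.74 and 1.56, and null females -1.72, -1.19 and -0.68 and -2.11, -1.33 and -0.97. Every stratum was lower in null mice, by -0.21, -0.27, -0.74 and -0.46 in control and BC females and control and BC males, and the mean difference was -0.42 ± 0.12 (SE; adjusted p = 0.00871). Alone, only males on control diet passed (adjusted p = 0.0302), and the sexes were not shown to differ (adjusted p = 0.256). With the marker scores as covariates no stratum of Hp passed: the differences were -0.23 and -0.36 in females and -0.20 and 0.14 in males, so that the sign turned in males on BC diet, and the mean was -0.36 (adjusted p = 0.0548). A score over 9 of 10 adipocyte genes was also lower in null males, from 0.46 to 0.91 in WT against -0.09 to 0.63 on control diet and from 0.38 to 0.92 against -0.13 to 0.39 on BC diet. Its part in the level of Hp was not tested.

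BC024137, an unnamed transcript 2.98 Mb below Bcmo1, had the smallest adjusted p of the members in the mean contrast, each on its brightest probe. It was higher in null mice in all 4 strata, by 0.12, 0.41, 0.34 and 0.25, with a mean of 0.28 ± 0.07 (SE; adjusted p = 0.00166) and no difference between the sexes that passed (-0.02 ± 0.14, adjusted p = 0.917). In males on control diet its levels ran from -0.46 to -0.02 in WT and from -0.11 to 0.37 in null mice, and on BC diet from -0.16 to 0.08 and from 0.02 to 0.46. In females they ran from -0.08 to 0.81 and -0.04 to 0.73 on control diet, and from -0.57 to 0.27 and 0.14 to 0.46 on BC diet. The ranges overlapped in each stratum. Over all kept probes a smaller adjusted p was found, on 1 probe of Atbf1 (-0.36; limma adjusted p = 0.0000749).

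Vac14, a scaffold of the lipid kinase complex of endosomes, was also higher in all 4 strata, with a mean of 0.29 ± 0.08 (adjusted p = 0.00553). Its largest difference was in females on BC diet, where levels ran from -0.76 to -0.13 in WT and from -0.15 to 0.59 in null mice (0.62 ± 0.16, adjusted p = 0.0227). In females on control diet, males on control diet and males on BC diet it was 0.28, 0.04 and 0.21. Mbtps1, the site-1 protease that cleaves sterol regulatory proteins, fell by 0.22 ± 0.06 on average (adjusted p = 0.00257), with -0.02, -0.25, -0.23 and -0.37 in the strata. Its 2 other probes gave -0.03 and 0.06, so the decrease rests on 1 of 3 probes. With the marker scores in the fit over 47 arrays neither was called. The Vac14 mean genotype difference was 0.22 (limma adjusted p = 0.0844) and the Mbtps1 mean genotype difference -0.12 (adjusted p = 0.135). The separate fits within each sex, with the scores, gave Vac14 0.22 and 0.61 in control and BC females and 0.14 and 0.34 in control and BC males. For Mbtps1 they gave 0.03, -0.24, -0.22 and -0.38 in the same order. None of these passed the adjusted threshold.

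The remaining members called in the mean contrast had mean differences of at most 0.32. Lower were 3010033K07Rik (-0.32 ± 0.10), Wdr59 of the nutrient-sensing GATOR complex (-0.19 ± 0.05), Ddx19b, an RNA helicase of messenger export (-0.17 ± 0.05), Bcar1, a focal adhesion adaptor (-0.15 ± 0.06), D8Ertd587e (-0.13 ± 0.04) and Glg1, a Golgi glycoprotein (-0.12 ± 0.04). Of these, 3010033K07Rik was the 1 member called in females on control diet (-0.79, limma adjusted p = 0.0481). Its difference was -0.25 in females on BC diet, 0.12 in males on control diet and -0.35 in males on BC diet. Higher were 8430428J23Rik (0.23 ± 0.08), Mlkl, the effector of necroptosis (0.16 ± 0.06), Taf1c, a factor of RNA polymerase I (0.14 ± 0.05) and Dhx38, a splicing helicase (0.10 ± 0.04). For Glg1 the other kept probe had the opposite sign (0.02), as had some probe of 8 of the 24 tested members with several kept probes. The other kept probes of Wdr59 (-0.08, limma adjusted p = 0.161) and Ddx19b (-0.10, adjusted p = 0.0912) were lower but not called.

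Genotype by sex passed for 23 of 72 members (31.9%, against 33.6% of all genes). Beside Plcg2 and Cotl1, the smallest p-values were those of Sf3b3, a splicing factor subunit, Wwox, a WW domain oxidoreductase, and Adat1, a tRNA deaminase. Sf3b3 was lower in null females by -0.15 and -0.44 on control and BC diet and higher in null males by 0.43 and 0.38 (females minus males -0.70 ± 0.16, adjusted p = 0.00102). Wwox was higher in null females on BC diet (0.34 ± 0.09, adjusted p = 0.0264), lower in null males on BC diet (-0.30 ± 0.09, adjusted p = 0.0171), and at -0.02 and -0.07 on control diet. On BC diet its male levels ran from 0.17 to 0.41 in WT and from -0.06 to 0.09 in null mice, without overlap. Adat1 had -0.04 and -0.11 in females and 0.16 and 0.14 in males, none past the adjusted threshold alone, with -0.23 ± 0.06 between the sexes (adjusted p = 0.00387).

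Ranges of WT and null mice that did not overlap were found for 0 of 73 members in either female stratum (2.09% and 3.97% of all genes). In males they were found for 3 of 71 on control diet (2010004A03Rik, Cotl1 and Dynlrb2; 12.4% of all genes) and for another 3 of 71 on BC diet (Ddx19b, Wdr59 and Wwox; 11.8%).

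No member passed for diet. Neither the diet mean nor genotype by diet called a member (limma, 0 of 72 each) or any gene (0 of 14432, 0%). At an unadjusted p under 0.05 the diet mean had 1 of 72 members, AI427515 (4.21% of all genes), and genotype by diet had 2, Bcar1 and Gabarapl2 (4.03%).

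Grouped by role, 3 of 6 tested genes listed as immune were higher (Plcg2, Mlkl and Cotl1) and 1 was lower (Hp), with a median difference of 0.05. The others of this list were 2010004A03Rik and Ctrb1. Ctrb1 encodes a chymotrypsinogen, so its place among immune genes is doubtful. Of all genes 16.9% were higher and 13.6% lower, and with 4 to 11 tested genes a role these counts are a description, not a result about the roles. The role lists were drawn up with earlier results of these data known. Of 9 metabolic enzymes and carriers 1 was lower (4632417N05Rik). None of the 4 cell cycle and DNA repair genes or of the 4 transcription and chromatin genes was called in the mean contrast on its brightest probe. On other kept probes Atbf1 (Zfhx3, a transcription factor) was lower and called on each of 3 (-0.25, -0.36 and -0.22; adjusted p = 0.0139, 0.0000749 and 0.00645), and Terf2ip, a telomere protein, on 1 (-0.10; adjusted p = 0.0235). Of 11 trafficking and membrane genes 1 was higher and 3 were lower, of 7 RNA genes 1 was higher and 1 lower, and of 4 adhesion and matrix genes 1 was lower.

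The pathway of the targeted gene lies elsewhere in the genome. Of 31 listed carotenoid and retinoid genes 21 were tested, of which 2 were higher and 4 lower (28.6%, against 30.5% of all genes). The higher ones were Rdh11, a retinal reductase (0.42 ± 0.10, SE; adjusted p = 0.00131), and Scarb1, a receptor that takes up carotenoids (0.18 ± 0.07, adjusted p = 0.0448). The lower ones were the retinoid receptors Rarb (-0.35 ± 0.09) and Rxra (-0.27 ± 0.07) and the alcohol dehydrogenases Adh1 (-0.29 ± 0.09) and Adh7 (-0.54 ± 0.09).

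The arrays lay on 12 slides. Within the 5 slides with both WT and null males, Dynlrb2 was lower in null males on 5 and Plcg2 and Cotl1 were higher on 4. In females, Vac14 and Mlkl were higher in null mice on 5 of 5 slides and Hp was lower on 5 of 5. Plcg2 was higher in null females on 3 of 5 slides and Cotl1 on 2, and Vac14 was higher in null males on 3. These genes were called on the same arrays, so the slide counts add no independent support. With the slide as a block, 10 of 72 members were called in the mean contrast (23.7% of all genes) and 4 of 71 in males on control diet (15.6%), while 12 were called in males on BC diet (28.2%). Plcg2 was then no longer called in the mean contrast. Across arrays 54.5% to 69.7% of spots exceeded 2 times background in Cy5. The number of arrays limits the precision.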

How the data were processed

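Each of the 47 mice gave 1 Agilent 2-colour array scanned with Feature Extraction 9.5.3.1, per the file headers. The deposited scanner files hold spot intensity values (median signals and local background) on a linear scale, and the authors' series table holds the log10 ratio of Cy5 over Cy3, equal to the scanner's ratio. Here intensities were background-corrected (normexp, offset 50), loess-normalized within arrays and set to log2 ratios in limma 3.58.1 (R 4.3.3). Control spots were left out, as were 10902 values flagged as outliers, and spots of 1 probe were averaged. Probes were kept where the mean signal over arrays was at least 2 times the mean local background in both channels (20718 over all arrays, 20811 in females, 20437 in males), and the brightest probe stood for a gene. Genotype means over strata, genotype by sex, genotype by diet and diet were fitted over 47 arrays, and strata within each sex, with Benjamini-Hochberg adjustment over all probes (threshold 0.05). Probe positions are the files' mm8 positions.

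Genes were named by a rule: up to 12 largest called differences each way, the 4 nearest tested on each side, and up to 5 per interaction or diet contrast. The members, lists and tests were chosen with earlier results of these data known. Tests were checked on simulated data. Other backgrounds, normalizations, filters, blocks, covariates, the methods' t-test and leaving out each array were tried.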

Additional observations from a re-analysis of the deposited data

Results flagged for a closer look

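Of 216 groups of mice examined for 27 named members, 16 had 1 mouse far from the others (Dixon's test), where chance gives about 1 in 20. Bcmo1-null male replicate 1 on BC diet was low for Plcg2 (-1.147) and Cotl1 (-1.518). Bcmo1-null female replicate 1 on control diet was low for Cotl1 (-1.208) and high for 2310061C15Rik (0.333) and Gcsh (0.345). WT males on BC diet had 1 high mouse for Plcg2 (replicate 3, -0.537), Bcar1 (replicate 5, 0.289) and 1 mouse apart for D8Ertd587e (replicate 1, -0.031). WT male replicate 6 on control diet stood apart for 2310061C15Rik (-0.069) and Wwox (-0.107). In WT females on control diet Mbtps1 had 1 mouse at 0.229 (replicate 2) and Mphosph6 1 at 0.175 (replicate 5). In WT females on BC diet replicate 2 was at 0.61 for BC060631 and at 1.149 for Sf3b3, and replicate 5 at -1.07 for Cdyl2. Bcmo1-null male replicate 3 on BC diet was at 0.244 for Cdyl2.

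The genotype difference of 10 named members differed between the sexes in limma's interaction test at an adjusted p under 0.05, where 33.6% of all genes did, and 5 of the 10 were named for this term. Females minus males, it was -0.977 for Cotl1, -1.056 for Plcg2, -0.238 for Taf1c, -0.702 for Sf3b3 and -0.226 for Adat1. It was 0.443 for Dynlrb2, 0.316 for Bcar1, 0.272 for D8Ertd587e, 0.461 for Gcsh and 0.344 for Wwox.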

How the results depend on the processing

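No setting gave a member with 1 sign and an unadjusted p under 0.05 in all 4 strata, nor a member called for diet or genotype by diet (limma). The mean contrast called 4 to 21 members over the settings other than left-out arrays, against 19: 6 with median centring, 4 without normalization within arrays, 10 with the slide as a block and 6 with marker scores as covariates. In the same order, males on control diet gave 3, 4, 4 and 1 against 13. Males on BC diet gave 2 with median centring, 2 without normalization, 0 with marker scores and 5 by the methods' t-test, against 13. Genotype by sex gave 6, 5 and 0 with median centring, without normalization and with marker scores, and 15 in the Cy5 channel alone, against 23. In females on BC diet the count of 2 became 1 without background correction, with processed signals, the deposited log10 ratio, median centring, the Cy5 channel alone, the slide block, averaged probes or only the 2 groups compared, 0 without normalization, with marker scores or by the t-test, and 4 with all 47 arrays in 1 fit. In females on control diet the count of 1 became 0 with processed signals, the deposited ratio, no filter, scanner flags, the slide block, the replicate block, only the 2 groups compared or the t-test. In the mean contrast the share of all genes called also fell, to 15.1% with median centring, 12.6% without normalization, 23.7% with the slide block and 15.4% with marker scores.

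With the replicate number as a block the mean contrast called 18 members. Same-numbered mice of different groups had correlated deviations of -0.524 to 0.607 (median 0.115; 85 of 161 over 0.1), and different-numbered mice ones of -0.677 to 0.66 (median -0.0152; 256 of 805 over 0.1). Not every same-numbered pair was over 0.1 and the labels name no shared litter or day, so the numbers were not treated as pairs. Same-numbered mice were still more alike by the median. Some of their arrays shared a slide, and the part of the slide in these correlations was not tested. Apart from the count in females on control diet, which went from 1 to 0, the block moved no count of members by over 1.5 times.

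Leaving out 1 array at a time gave 14 to 20 called in the mean contrast, 0 to 1 and 0 to 4 in females on control and BC diet, 8 to 17 and 10 to 15 in males on control and BC diet, and 17 to 26 for genotype by sex. The count of 13 in males on control diet was 8 without WT replicate 3 on control diet. Among named members Adat1 changed sign without normalization (-0.034) and with averaged probes (-0.005), and Wwox with marker scores (0.001) and without Bcmo1-null replicate 1 of females on BC diet (0.003) or of males on control diet (0.004), in a range of -0.028 to 0.004 with 1 array left out. Mlkl lost its call in 31 of 47 fits with 1 array left out, Bcar1 and Dhx38 in 23 each and 2310061C15Rik in 14. The causes were not tested. Signal over background limited the test to 72 of 120 members.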
